A study of Homo sapiens with 20 samples.

Results

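The hypoxia response was described here through 31 genes, chosen by symbol, of the 26038 symbols in the count table. They comprise 3 subunits of the hypoxia-inducible factors (HIFs), 6 oxygen sensors, turnover factors and inhibitors of those subunits, and 22 genes known as HIF targets. All 31 were in the table. For 28 of them the counts passed the filter for testing in each comparison, and EGLN2, EGLN3 and SLC2A3 did not pass in any.

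The study measured polyA RNA in 20 libraries of MHCC-97H (per the labels, a human line from hepatocellular carcinoma) to ask how cells that survive sublethal heating differ and what knockdown of NFS1, a cysteine desulfurase, does to them. The first experiment compared wild-type cells warmed to 37 °C (group R-37) with others warmed to 47 °C (group R-47), and the second had cells labelled wild type (NC) or NFS1 knockdown by shRNA (NFS1), both held at 47 °C. Every group of 5 libraries spent 15 min in its water bath and then 24 h in an incubator, so NC, NFS1 and R-47 share the heat treatment. The labels do not say whether the NC cells carried a control shRNA or how many clones were used. Nor do they name separate cultures, so each p-value reflects the spread among these libraries, and that spread may be technical.

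Libraries held between 32219900 and 39689900 counts, rounded to 6 digits. NFS1 itself was at 71.4 to 75.9 CPM (counts scaled to a common library size) in NC and 64.0 to 70.7 CPM in the libraries labelled NFS1 knockdown, a log2 fold change of -0.11 (SE 0.05) that did not pass the test (adjusted p = 0.114, edgeR quasi-likelihood). The name NFS1 below stands for the group as labelled. Of the liver cancer markers, KRT18 was at 918 CPM or more in every library, AFP averaged 3.68 to 5.17 CPM over the groups, and GPC3 had 3 counts or fewer in every group. Libraries of the second experiment stood apart from the first: VIM averaged 10.6 CPM in R-37, 10.3 in R-47, 217 in NC and 164 in NFS1, and the summed level of 4 cholangiocyte markers was 388 to 531 CPM in the first experiment against 9.32 to 14.5 CPM in the second. Experiment and group cannot be told apart between NC and R-47. In bulk RNA, fewer cells of a type and less RNA per cell cannot be told apart either.

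HIFs are pairs of an oxygen-labile alpha subunit, HIF1A or EPAS1 (HIF-2 alpha), and the stable subunit ARNT. In oxygenated cells the prolyl hydroxylases EGLN1 to EGLN3 mark the alpha subunits for VHL, the recognition part of a ubiquitin ligase, and HIF1AN hydroxylates them so that they no longer bind their coactivators. When oxygen, iron or oxoglutarate is short, the alpha subunits persist, enter the nucleus with ARNT and bind a short core, ACGTG or GCGTG, near genes of glycolysis, pH control, matrix hydroxylation and mitophagy. That control acts mainly on protein stability, and HIF protein was not measured here. EGLN1, EGLN3 and many targets are themselves induced by HIF, so RNA of the targets is often read in place of the factor.

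Promoter windows of 300 bases, from 250 before to 50 bases after an annotated start, were available for 25 of the genes, as 35 windows from RefSeq (GRCh38.p14), some of which overlap. The windows of VHL, VEGFA, SLC2A3, HILPDA, BNIP3L and NDRG1 were not used here. The excerpts below run from 20 bases before the first core to 20 after the last, as far as the window reaches, and capitals mark ACGTG or GCGTG on either strand (CACGT and CACGC on the opposite one). The first set holds some of the genes that were higher in the libraries labelled NFS1 knockdown than in NC. Only windows with a core were excerpted. HIF1AN and P4HA2 were higher too but had no core in their windows, nor had window 1 of MXI1. The genes shown are MXI1 (window 2 of 3, chr10:110210084-110210142, plus strand), BNIP3 (chr10:131982003-131982086, minus strand), P4HA1 (chr10:73096928-73096972, minus strand), EGLN1 (chr1:231422276-231422320, minus strand) and KDM4B (chr19:4968863-4969060, plus strand).
MXI1: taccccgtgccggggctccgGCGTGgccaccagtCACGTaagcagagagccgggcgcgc
BNIP3: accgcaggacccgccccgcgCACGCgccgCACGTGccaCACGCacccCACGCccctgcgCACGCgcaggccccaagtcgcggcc
P4HA1: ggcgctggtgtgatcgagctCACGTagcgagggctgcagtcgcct
EGLN1: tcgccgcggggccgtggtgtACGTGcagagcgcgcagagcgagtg
KDM4B: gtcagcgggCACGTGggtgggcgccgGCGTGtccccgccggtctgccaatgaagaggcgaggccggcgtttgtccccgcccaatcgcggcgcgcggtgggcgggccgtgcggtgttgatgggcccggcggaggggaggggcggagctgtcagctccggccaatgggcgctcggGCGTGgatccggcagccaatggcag

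The next set holds genes that were higher after heating or differed most between the 2 heated controls. They are ANGPTL4 (chr19:8363905-8363945, plus strand), PDK1 (window 2 of 2, chr2:172556053-172556106, plus strand), CA9 (chr9:35673890-35673934, plus strand) and LOX (window 1 of 3, chr5:122078277-122078464, minus strand).
ANGPTL4: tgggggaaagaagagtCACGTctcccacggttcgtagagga
PDK1: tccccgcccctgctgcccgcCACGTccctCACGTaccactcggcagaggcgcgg
CA9: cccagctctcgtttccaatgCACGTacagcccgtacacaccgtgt
LOX: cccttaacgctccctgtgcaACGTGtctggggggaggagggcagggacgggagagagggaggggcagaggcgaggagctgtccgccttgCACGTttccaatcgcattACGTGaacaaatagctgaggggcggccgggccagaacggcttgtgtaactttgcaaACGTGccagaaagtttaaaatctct

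BNIP3 held the most cores, 5 sites within the 84 bases printed, 1 of them the palindrome CACGTG, in which ACGTG reads on both strands and is counted as 1 site. LOX, FAM162A and DDIT4 had 4 sites each in a window, and the single core of CA9 began 18 bases before the start. Either core was in 27 of the 35 windows (77.1%), against 53.4% of the 25252 windows of genes in the count table and 48.4% of all 35116 windows. ACGTG was in 51.4% of the members' windows against 22.9% of those of genes in the table, and GCGTG in 48.6% against 41.4%. The members' windows were also richer in G and C, with a median of 68.0% against 61.7%, and the part of that difference in the share of cores was not tested. No core was in the windows of ARNT, EGLN3, HIF1AN and P4HA2, which says only that these letters are not in those windows. A match is a description of the sequence and was not measured as a bound site.

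**Figure D1:**
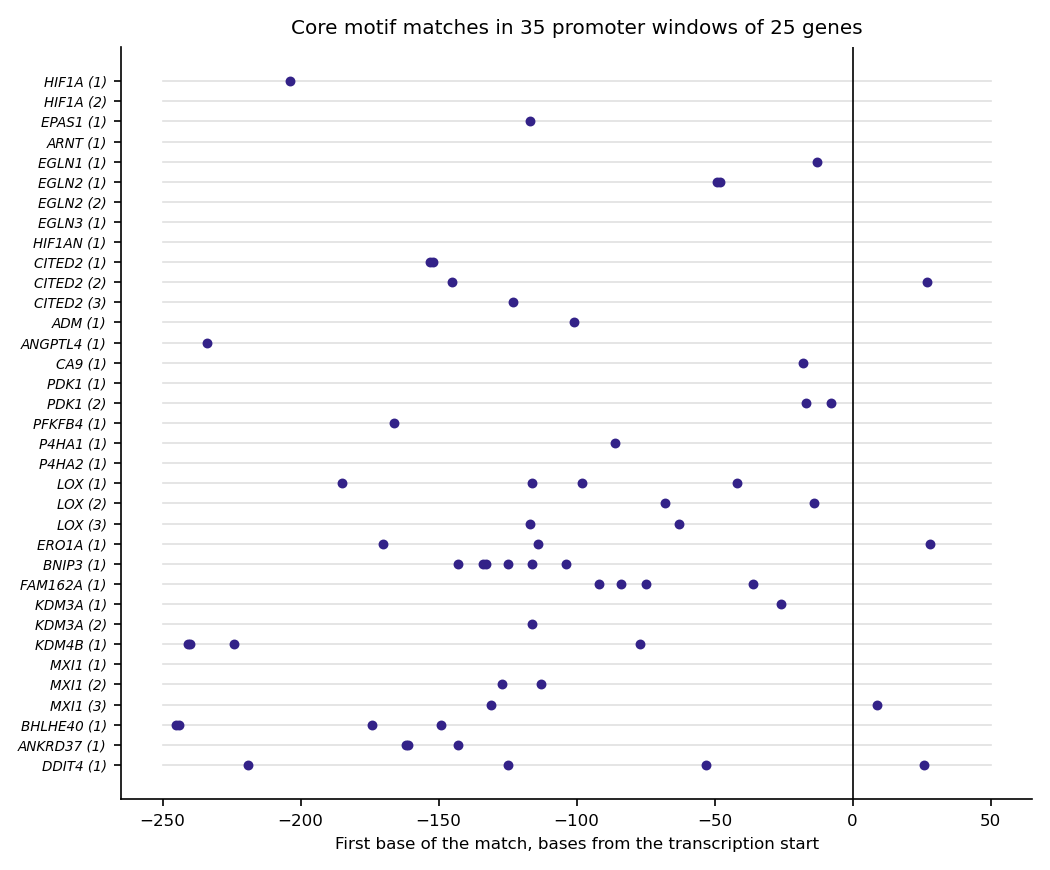
Positions of ACGTG or GCGTG cores (points, first base of each match, either strand) in 35 promoter windows of 25 genes; the x axis is the distance in bases from the annotated start, and the number after a gene is its window. Matches lie along the whole window, and the densest cluster is the run of 5 sites in BNIP3.

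Levels can be compared between genes only per length, as deposited FPKM. Averaged over the 20 libraries, NDRG1 (a growth-arrest protein) was the highest at 61.7 FPKM, followed by the transcriptional repressor BHLHE40 at 55.5 and HIF1A at 46.5 FPKM. BNIP3 (37.8 FPKM), DDIT4 (37.2), EPAS1 (35.9) and ADM (34.2) came next, and ARNT was at 14 FPKM. The order differed between groups: NDRG1 averaged 25.9 ± 0.784 FPKM in R-37 (SD, n = 5), below HIF1A at 51.1 ± 8.0, and 115 ± 12.7 FPKM in the NFS1 libraries, above HIF1A at 43.2 ± 9.66. HIF1A and EPAS1 did not differ beyond their spread in R-47 (49.4 ± 1.81 and 48.5 ± 1.98 FPKM), while in NC they were at 42.4 ± 7.22 and 26.9 ± 1.22 FPKM. Among the sensors EGLN1 averaged 16.3 FPKM, and EGLN2 (0.0502 FPKM) and EGLN3 (0.0615 FPKM) were near zero. EGLN2 had 1 to 10 counts and EGLN3 2 to 11 counts in a library. The EGLN2 value is uncertain because 30.6% of its exonic bases are shared with the readthrough gene RAB4B-EGLN2 on the same strand. SLC2A3, a high-affinity glucose transporter, had 0 to 8 counts, while SLC2A1, the transporter that is not among the 31, averaged 122 CPM in R-37.

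**Figure D2:**
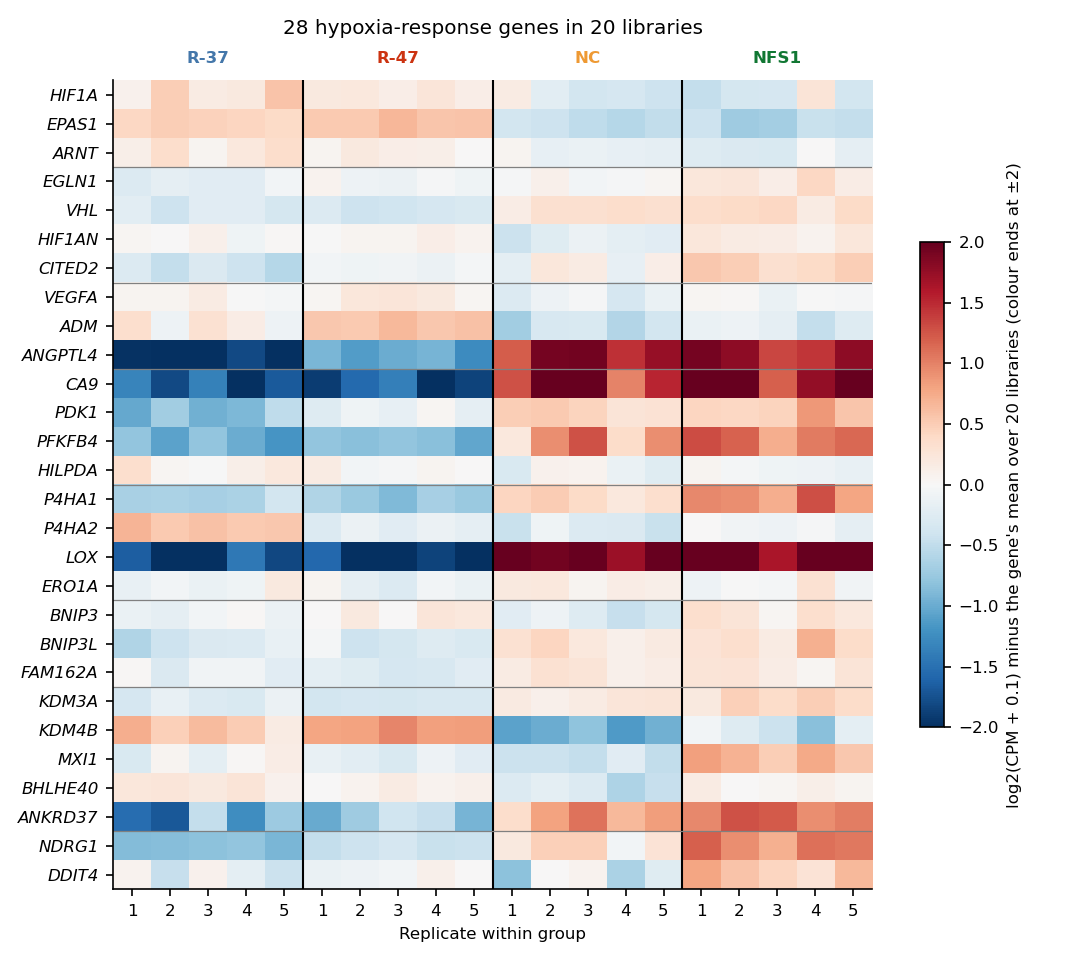
Each row is 1 of the 28 tested genes and each column 1 of the 20 libraries; colour gives log2(CPM + 0.1) minus the gene's mean over all libraries, with colour ends at ±2 and lines between groups and between roles. ANGPTL4, CA9, LOX and KDM4B change at the line between the first and second experiment, and NDRG1 goes up over the groups from 138 CPM (lowest R-37 library) to 592 CPM (highest NFS1 library).

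The first comparison asked what 47 °C left in wild-type cells a day later. Of the 28 genes tested, 8 were higher in R-47 than in R-37, against a background of 11.9% of all 14344 genes tested called higher, and 1 was lower, against 13.2% called lower (edgeR quasi-likelihood, Benjamini-Hochberg adjusted p under 0.05). The rises were in ANGPTL4, PDK1, ADM, NDRG1, CITED2, KDM4B, BNIP3 and EPAS1, and the fall was in P4HA2. Fold changes were mostly small: ANGPTL4 was the 1 gene that changed more than 2-fold. The median log2 fold change of the 28 was 0.06, against -0.01 over all genes tested. With library size as the only scaling, 10 members were higher and 1 lower, with 2977 of all genes higher (20.8%) and 1013 lower (7.06%) in place of 1714 and 1890.

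Of the subunits, EPAS1 was at 252, 264, 260, 255 and 245 CPM in R-37 and 271, 271, 300, 276 and 281 CPM in R-47. The groups did not overlap, yet the rise was 1.10-fold (log2 0.14, SE 0.04, adjusted p = 0.026), and the call was kept in 18 of 23 alternatives, being lost, among others, with all 20 libraries in one fit, with no filter, and without R-47 replicate 3 or R-47 replicate 5. HIF1A averaged 240 ± 36.1 CPM in R-37 and 219 ± 7.2 in R-47 (SD, n = 5 each), a log2 fold change of -0.13 with a 95% interval of -0.29 to 0.04 that did not pass the test. ARNT did not pass either (81.6 ± 7.69 and 75.1 ± 3.69 CPM, log2 -0.12, adjusted p = 0.198).

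Among sensors and inhibitors, CITED2, which competes with HIF alpha for the coactivators CBP and p300, rose from 43.8 ± 3.77 to 55.3 ± 1.14 CPM (log2 0.34, adjusted p = 9.15e-04, edgeR). All R-47 libraries (53.6 to 56.5 CPM) were above all R-37 libraries (38.8 to 47.7 CPM). EGLN1 missed the threshold at 61.4 ± 3.56 and 67.6 ± 3.72 CPM (log2 0.15, adjusted p = 0.0729) and passed it in several alternatives, among them a minimum count of 50 and the fit without R-37 replicate 5. VHL did not pass (log2 -0.06, 95% interval -0.17 to 0.06), and neither did HIF1AN (log2 0.05, 95% interval -0.06 to 0.16).

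Among secreted targets, ANGPTL4, an inhibitor of lipoprotein lipase, was at 2.98, 2.08, 2.27, 3.37 and 1.81 CPM in R-37 and at 6.32, 5.48, 6.0, 6.26 and 4.95 CPM in R-47. Every heated library was above every unheated one, and the rise was 2.33-fold (log2 1.22, SE 0.16, adjusted p = 6.45e-05, edgeR). ADM, which encodes the vasodilator peptide adrenomedullin, rose from 46.3 to 62.7 CPM across R-37 libraries to 71.3 to 78.1 CPM across R-47 libraries (log2 0.45, SE 0.08, adjusted p = 9.91e-04). VEGFA, the main angiogenic growth factor of the set, averaged 73.2 ± 3.99 and 78.8 ± 5.53 CPM and did not pass (log2 0.11, adjusted p = 0.171), although it passed when scaled by library size alone.

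PDK1, the kinase that shuts pyruvate out of mitochondrial oxidation, was at 13.8, 17.3, 14.5, 15.1 and 19.8 CPM in R-37 and at 23.6, 26.7, 25.3, 29.1 and 25 CPM in R-47. The groups were apart, with a rise of 1.62-fold (log2 0.70, SE 0.09, adjusted p = 8.7e-05, edgeR). The other metabolic targets did not pass the test. CA9, a cell-surface carbonic anhydrase that acidifies the medium, was near its lower limit of counting, with 8 to 32 counts in a library of the first experiment and 0.674 ± 0.254 and 0.616 ± 0.224 CPM (log2 -0.14, 95% interval -0.86 to 0.58). The glycolytic regulator PFKFB4 was at 4.83 ± 0.59 and 5.17 ± 0.368 CPM, and the lipid-droplet protein gene HILPDA at 19.2 ± 1.86 and 17.7 ± 1.06 CPM.

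P4HA2, a catalytic subunit of the collagen prolyl hydroxylase, went the other way. It was at 40.4, 36.3, 38.2, 36.2 and 36.7 CPM in R-37 and 20.8, 23.4, 21.6, 23.2 and 22.2 CPM in R-47, so that all heated libraries were below all unheated ones (1.68-fold lower, log2 -0.75, SE 0.06, adjusted p = 4.38e-07, edgeR). Its paralog P4HA1 did not pass (24.0 ± 2.19 and 21.7 ± 1.52 CPM, log2 -0.14, adjusted p = 0.192). LOX, the collagen cross-linking oxidase, had 7 to 17 counts in these libraries, and the disulfide oxidase gene ERO1A was at 63.7 ± 6.42 and 60.5 ± 5.28 CPM.

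NDRG1 was at 138 to 150 CPM in R-37 and 186 to 205 CPM in R-47, a rise of 1.35-fold with the smallest adjusted p among the 8 rises (log2 0.43, SE 0.04, adjusted p = 4.95e-06, edgeR). BNIP3, a mitophagy receptor, rose from 53.9 ± 3.16 to 63.2 ± 4.97 CPM (log2 0.24, adjusted p = 0.0137), with overlapping groups. KDM4B, a histone H3K9 demethylase, rose from 37.0 ± 5.28 to 46.7 ± 2.54 CPM (log2 0.34, adjusted p = 0.00888), and less the median of its chromosome arm its adjusted p was 0.0554. Its fellow demethylase KDM3A, the mitophagy receptor gene BNIP3L and the remaining targets FAM162A, MXI1, BHLHE40, ANKRD37 and DDIT4 did not pass, with log2 fold changes between -0.15 (MXI1) and 0.41 (ANKRD37, at 0.844 ± 0.343 and 1.12 ± 0.23 CPM). With the heat comparison moved the summed level of 7 leukocyte markers, from 83.2 to 93.9 CPM in R-37 to 156 to 201 CPM in R-47, with CD3E at 3 counts or fewer. Of 11 tested hepatocyte and liver cancer markers, 5 were lower and 1 higher (median log2 fold change -0.34), and ALB averaged 14.1 CPM in R-37 and 5.1 in R-47. Their part in these results was not tested.

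**Figure D3:**
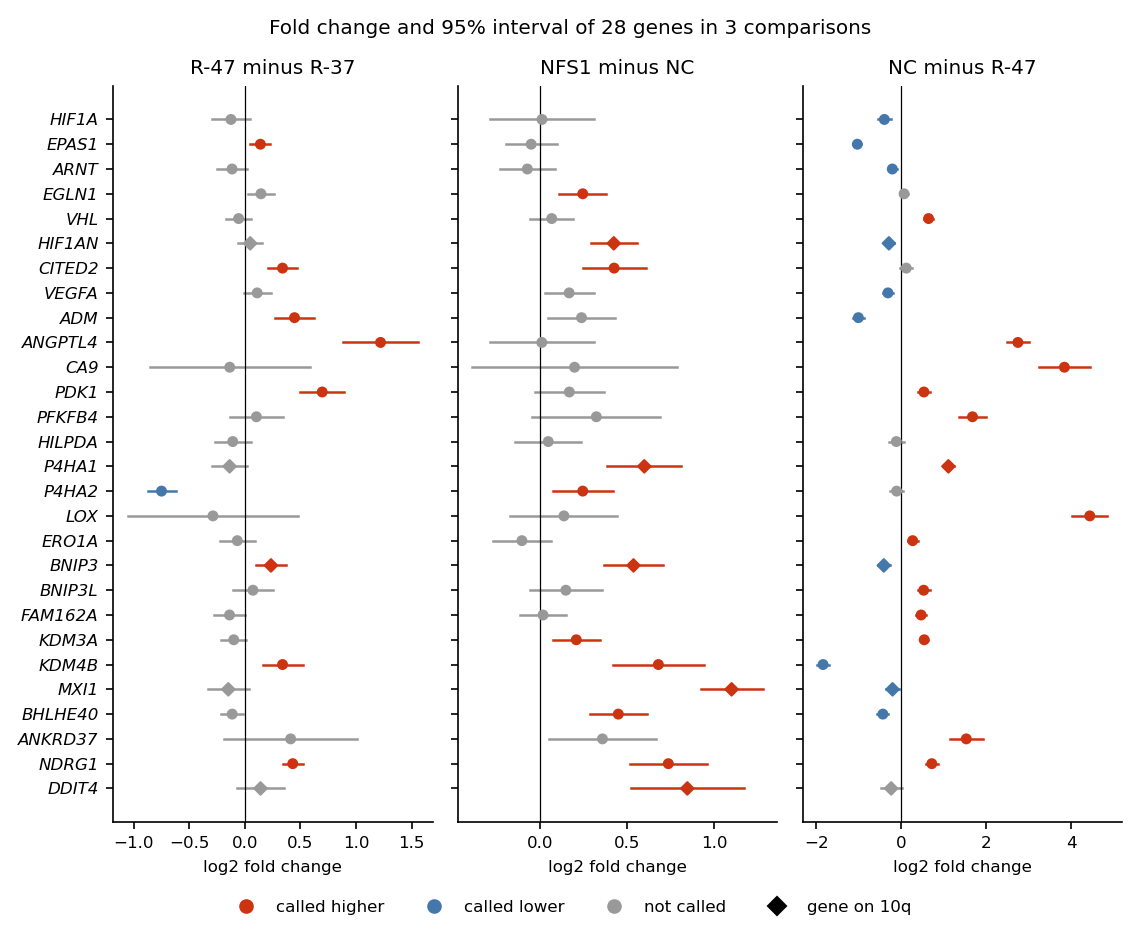
Log2 fold change (points) and 95% interval (lines) of the 28 tested genes in 3 comparisons, with red for called higher, blue for called lower and grey for not called; diamonds are genes on the long arm of chromosome 10, and the 3 x axes have different ranges. ANGPTL4 at 1.22 and P4HA2 at -0.75 are the ends of the heat panel, MXI1 at 1.10 leads the middle panel, and LOX at 4.43 leads the right one.

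The second comparison asked what the NFS1 knockdown label adds in heated cells. Of the 28 genes, 12 were higher in the libraries labelled NFS1 than in NC, against a background of 15.7% of all 15086 genes tested called higher. The number lower was 0, against 12.5% called lower (edgeR quasi-likelihood), and it was 0 also at an unadjusted p under 0.05 and by DESeq2 and limma-voom. The rises were in MXI1, DDIT4, NDRG1, KDM4B, P4HA1, BNIP3, BHLHE40, CITED2, HIF1AN, EGLN1, P4HA2 and KDM3A. The log2 fold change was above 0 for 25 of the 28, against 7942 of all 15086 genes tested. The 25 include all 5 members on the long arm of chromosome 10, where 373 of 425 tested genes were above 0. The members' median log2 fold change was 0.22 against 0.02 over all genes tested. No subunit was among the 12 called.

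HIF1A was at 216, 166, 150, 152 and 144 CPM in NC and 139, 151, 152, 231 and 149 CPM in the NFS1 libraries. One library in each group stood above the rest, and the groups overlapped (log2 0.01, 95% interval -0.29 to 0.31, adjusted p = 0.963, edgeR). Without NFS1 replicate 4 the log2 fold change was -0.15 (adjusted p = 0.241). EPAS1 averaged 136 ± 7.46 and 130 ± 12.7 CPM (log2 -0.05, 95% interval -0.20 to 0.10), and ARNT 64.6 ± 4.56 and 60.7 ± 5.58 CPM (log2 -0.07, 95% interval -0.23 to 0.08).

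Of the sensors and inhibitors, 3 of 4 tested were higher, against 15.7% of all genes tested. Of the 3, HIF1AN was not called against the median of its chromosome arm (adjusted p = 0.329, edgeR). EGLN1 rose from 67.5 to 74.8 CPM across NC libraries to 76.9 to 93.4 CPM (log2 0.25, SE 0.06, adjusted p = 0.0105, edgeR), with no overlap. HIF1AN, the asparaginyl hydroxylase, rose from 47.4 ± 3.58 to 62.8 ± 2.71 CPM (log2 0.42, adjusted p = 1.78e-04), and CITED2 from 59.6 ± 8.03 to 79.1 ± 4.88 CPM (log2 0.43, adjusted p = 0.00192). VHL averaged 142 ± 7.71 CPM in NC and 146 ± 9.38 in NFS1, short of the threshold (log2 0.07, 95% interval -0.06 to 0.19).

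Of the 7 tested targets for secretion or for pH, glucose and lipid metabolism, 0 passed (edgeR, DESeq2 and limma-voom). Of all genes tested, 15.7% were called higher (edgeR), and among only 7 genes 0 is not far from that share. The log2 fold change was above 0 in all 7, from 0.01 (ANGPTL4) to 0.32 (PFKFB4). Of the 7, 2, VEGFA and ADM, had an unadjusted p under 0.05. SLC2A3, the member of this class below the filter, had 0, 0, 0, 1 and 0 counts in NC and 6, 3, 5, 7 and 1 in NFS1, and was called higher in the fits without a filter (DESeq2, edgeR and log2(FPKM + 1)). CA9 averaged 8.81 ± 3.92 CPM in NC and 9.99 ± 2.96 in NFS1 (log2 0.20, 95% interval -0.39 to 0.79), so the spread within each group left a wide range. VEGFA was at 63.1 ± 5.51 and 70.0 ± 3.08 CPM (log2 0.17, adjusted p = 0.0726), ADM at 36.5 ± 4.32 and 42.5 ± 4.24, ANGPTL4 at 38.6 ± 7.93 and 38.4 ± 6.59, PDK1 at 37.4 ± 3.1 and 41.5 ± 5.78, and PFKFB4 at 16.4 ± 4.89 and 20.3 ± 2.94 CPM. VEGFA was called higher by library size alone, on log2(FPKM + 1) and log2(FPKM + 0.1), and with length and GC offsets. ADM was called higher with those offsets, without NFS1 replicate 4, and leaving out NC replicate 1 with NFS1 replicate 4 together. Among matrix genes P4HA1 rose from 41.4 to 51.2 CPM across NC libraries to 59.4 to 88.4 CPM (log2 0.60, SE 0.10, adjusted p = 4.99e-04), without overlap. P4HA2, at 20.5 ± 2.22 and 24.0 ± 1.23 CPM, passed narrowly (log2 0.25, adjusted p = 0.034) and kept its call in 13 of 25 alternatives.

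The rises were largest among chromatin, transcription and stress genes. MXI1, which antagonises MYC by pairing with MAX, was at 12.1, 12.1, 11.8, 14 and 11.7 CPM in NC and at 29.2, 26.6, 23.2, 27.8 and 23.9 CPM in the NFS1 libraries. The lowest of these was above the highest NC library, and the rise was 2.14-fold (log2 1.10, SE 0.08, adjusted p = 8.24e-07, edgeR). DDIT4, an inhibitor of mTORC1, was at 34.8, 62.1, 64.8, 39.8 and 52.2 CPM in NC and at 106, 91.6, 82.5, 74.2 and 96.3 CPM in NFS1 (log2 0.85, SE 0.15, adjusted p = 9.28e-04). NC itself was spread widely for this gene, yet no library overlapped. NDRG1 was at 297, 362, 362, 251 and 314 CPM in NC and at 592, 496, 425, 556 and 542 CPM in NFS1 (log2 0.74, SE 0.10, adjusted p = 1.37e-04). All NFS1 libraries were above all NC libraries for NDRG1 also.

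KDM4B was at 12.2, 12.9, 14.8, 11.7 and 13.3 CPM in NC and at 24.8, 21.7, 19.2, 14.4 and 22.6 CPM in NFS1 (log2 0.68, SE 0.12, adjusted p = 9.38e-04, edgeR). NFS1 replicate 4 lay inside the NC range and the other 4 above it. BNIP3 rose from 41.5 to 53.6 CPM across NC to 58.7 to 72.6 CPM (log2 0.54, adjusted p = 2.01e-04), and BHLHE40 from 148 ± 17.5 to 200 ± 8.15 CPM (log2 0.45, adjusted p = 5.89e-04). KDM3A was at 92.4 ± 3.9 and 105 ± 8.43 CPM (log2 0.21, adjusted p = 0.024), a call kept in 19 of 25 alternatives. The remaining members LOX, ERO1A, HILPDA, BNIP3L, FAM162A and ANKRD37 did not pass, with log2 fold changes from -0.10 (ERO1A) to 0.36 (ANKRD37).

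Position on the genome moved with this result. The 5 members on the long arm of chromosome 10 (10q) were all higher: DDIT4 (chr10:72273924-72276036), P4HA1 (chr10:73007217-73096866), HIF1AN (chr10:100535943-100559998), MXI1 (chr10:110207605-110287365) and BNIP3 (chr10:131967684-131981923, all RefSeq, GRCh38.p14). So were most genes of that arm, with 287 of 425 tested called higher (67.5%), 7 lower and a median log2 fold change of 0.51. Of the 23 tested members elsewhere, 7 were higher, against 14.2% of the 14661 tested genes off 10q. When each gene was measured against the median of its arm, 6 of the 28 were called higher, against 12.2% of all genes in that setting: EGLN1, CITED2, KDM4B, MXI1, BHLHE40 and NDRG1. MXI1 then stood 0.59 above its arm (adjusted p = 2.14e-04, edgeR against the arm median). DDIT4 was 0.34 above it (adjusted p = 0.125), while P4HA1 (0.09), BNIP3 (0.02) and HIF1AN (-0.09) lay close to it and lost their calls. P4HA2 (0.16) and KDM3A (0.17) lost theirs too.

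**Figure D4:**
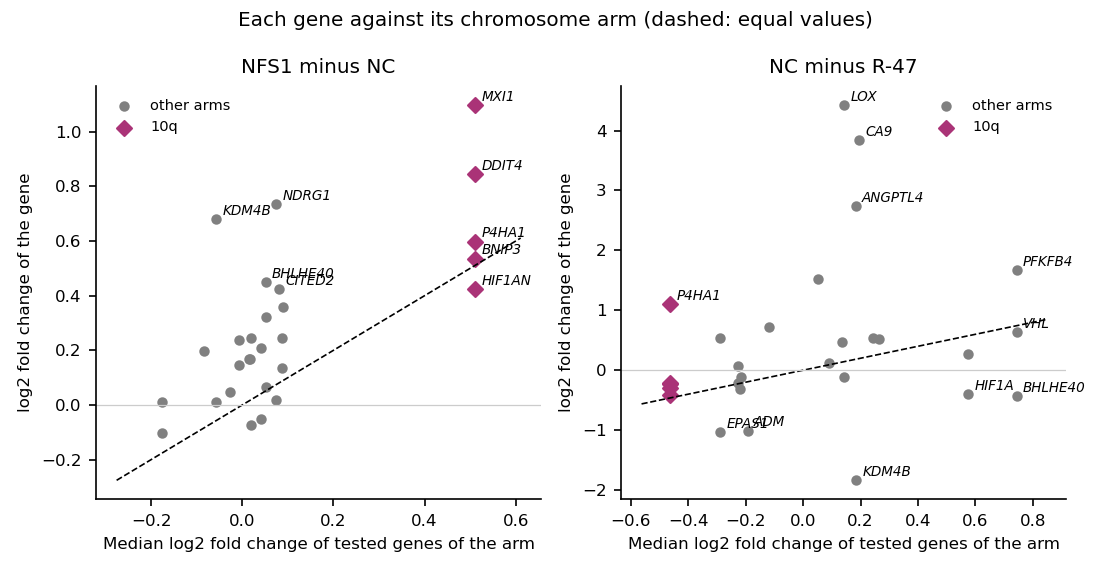
Log2 fold change of each tested member (y axis) against the median log2 fold change of all tested genes on its chromosome arm (x axis), for NFS1 against NC on the left and NC against R-47 on the right; diamonds are members on 10q and the dashed line marks equal values. On the left BNIP3, P4HA1 and HIF1AN sit at the line while MXI1 is 0.59 above it; on the right P4HA1 is 1.57 above it and VHL lies near it.

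Of the 4 groups, NFS1 had the highest mean for every 10q member, but the lowest group was not always the same. HIF1AN averaged 56.6 ± 2.47 CPM in R-37, 58.3 ± 1.94 in R-47, 47.4 ± 3.58 in NC and 62.8 ± 2.71 in NFS1, and BNIP3 53.9 ± 3.16, 63.2 ± 4.97, 47.3 ± 4.54 and 67.8 ± 5.74 CPM. For both, as for DDIT4 and MXI1, NC had the lowest mean, though its libraries overlapped those of another group except for HIF1AN. P4HA1 went another way, at 24 ± 2.19 CPM in R-37, 21.7 ± 1.52 in R-47, 46.6 ± 3.61 in NC and 69.7 ± 11.3 in NFS1. For DDIT4 the NFS1 group was apart, at 54.7 ± 9.9, 60.2 ± 4.02, 50.8 ± 13.3 and 90.1 ± 12.3 CPM in the same order. Over all tested genes of 10q the median log2 fold change was -0.46 for NC against R-47, with 251 of 428 lower, and -0.02 for R-47 against R-37. The NC libraries are shared by the comparisons with NFS1 and with R-47, so these are not independent. MXI1 averaged 15.9 ± 2.03 CPM in R-37, 14.3 ± 0.789 in R-47, 12.3 ± 0.958 in NC and 26.1 ± 2.54 in NFS1. For MXI1, as for P4HA1 and DDIT4, every NFS1 library was above every library of the other groups. Also moving with the NFS1 label were the stress gene HSPA6, from 5.41 to 39.0 CPM across NC libraries to 22.3 to 251 CPM, and the summed level of 13 hepatocyte and liver cancer markers, from 4480 to 4900 CPM to 3490 to 4190 CPM. The summed level of 7 fibroblast and stellate markers was 23.8 to 28.8 CPM in NC and 34.9 to 57.2 in NFS1, with COL1A2 at 3 counts or fewer. Of the 5 tested of these, 1 was called higher and 0 lower, with a median log2 fold change of 0.045. The summed level of the leukocyte markers was 120 to 129 CPM in NC and 131 to 152 in NFS1, with PTPRC, CD3E and LYZ at 3 counts or fewer. VIM was lower in NFS1 (log2 -0.38, adjusted p = 3.97e-04, edgeR). Their part in the rises was not tested. Leaving out NFS1 replicates 2 and 3, the libraries highest for HSPA6, 10 members were called higher, against 10.6% of all genes tested there.

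Within the second experiment some targets varied from library to library more than most genes did, and others less. In NC, CA9 was at 5.99, 12.9, 13.2, 4.90 and 7.14 CPM, a 2.69-fold range. PFKFB4 was at 10.9, 18.1, 22.9, 12.2 and 18.1 CPM. In NC the SD of log2 CPM was 0.61 for CA9, 0.43 for PFKFB4 and 0.39 for DDIT4. These were above those of 99.9%, 99.4% and 98.8% of tested genes, whose median SD was 0.11. The SDs of ERO1A and KDM3A in NC were above only 15.8% and 16.3%. In NFS1, CA9 was above 98.9% of genes, PFKFB4 above 69.9%, DDIT4 above 64.1% and BHLHE40 above 6.4%. For CA9 the share was also high in the first experiment, at 94.1% in R-37 and 94.7% in R-47. The same libraries were high for different genes: NC replicate 2 was the highest of the group in 10 of 21 tested targets and NC replicate 3 in 8, while NC replicate 4 was lowest in 11 and NC replicate 1 in 6. HIF1A went otherwise, being highest in NC replicate 1 (216 CPM, the others 144 to 166). In NFS1, replicate 1 was the highest in 11 of 21 targets and replicate 3 the lowest in 10, and CA9 ranged from 5.68 to 13.2 CPM. How often each library was highest or lowest over all tested genes was not counted. These ranks therefore cannot be called particular to the targets. The cause was not tested.

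**Figure D5:**
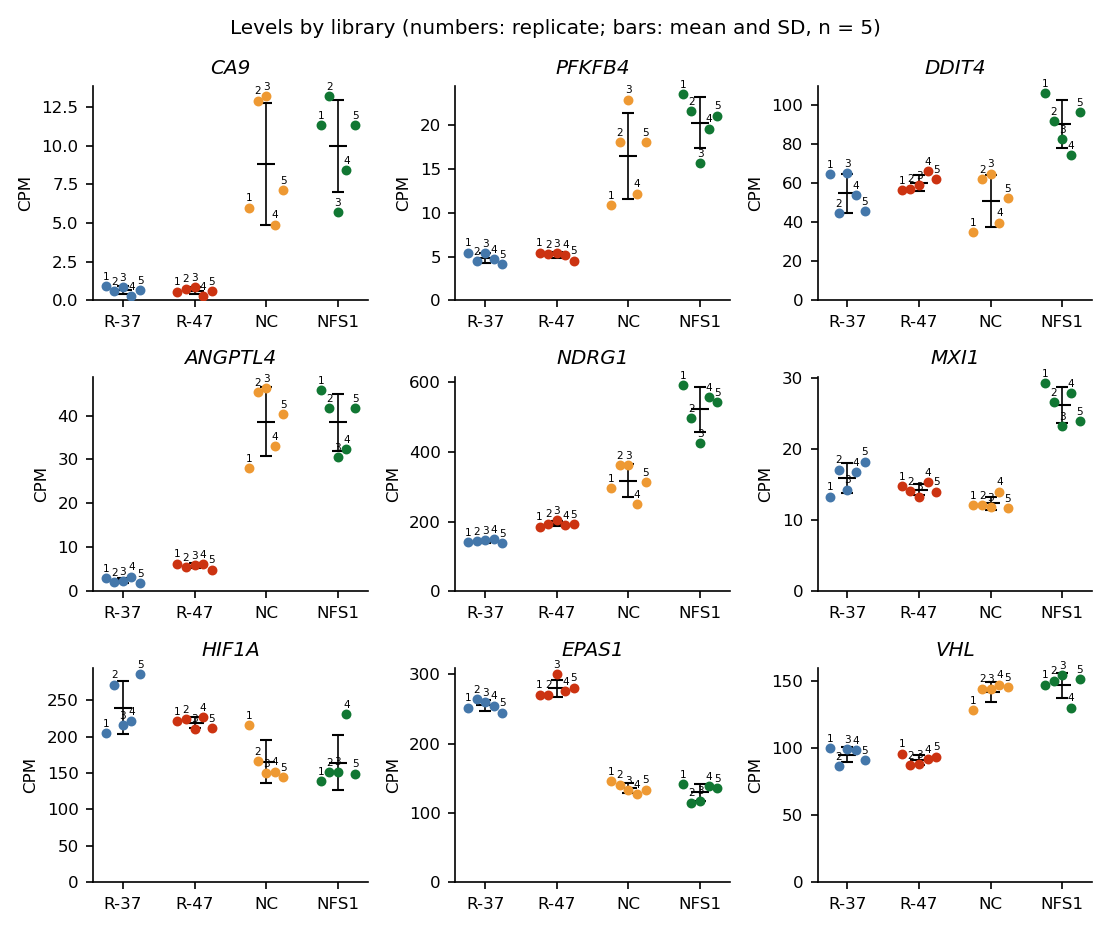
CPM of 9 genes in every library, by group; points are libraries numbered by replicate, bars are the mean and SD of 5 libraries, and each y axis starts at 0. CA9, PFKFB4 and DDIT4 are highest in NC replicate 3 and lowest in NC replicates 1 and 4. NC replicate 2 comes next to the highest, level with replicate 5 for PFKFB4. HIF1A is highest in NC replicate 1 and NFS1 replicate 4.

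NC and R-47 carry the same labelled genotype and treatment in separate experiments, so any difference between them lies between experiments. Whether the cells of both experiments were the same line was not tested, and every fold change between NC and R-47 carries that limit. Here 13 of the 28 members were higher in NC, against a background of 40.1% of 15080 genes called higher, and 10 were lower, against 39.6% called lower. The members' median log2 fold change was 0.09, against 0.01 over all genes. Scaled by library size alone, the median of all genes moved by 0.18, 7465 genes were higher (49.5%) and 4740 lower (31.4%) in place of 6043 and 5978, and the members' calls were 15 higher and 6 lower. HSPA6 averaged 1.13 CPM in R-47 and 19.0 in NC (log2 4.09, adjusted p = 8.73e-08, edgeR) under the same heat label. The part of HSPA6, VIM and the cholangiocyte markers in these differences was not tested.

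RNA of all 3 subunits was lower in NC than in R-47, though that of ARNT was not lower than its chromosome arm (0.02 from the arm median, adjusted p = 0.765, edgeR). EPAS1 was at 271, 271, 300, 276 and 281 CPM in R-47 and at 146, 141, 133, 127 and 134 CPM in NC, with no overlap (2.04-fold lower, log2 -1.03, SE 0.05, adjusted p = 4.83e-15, edgeR). HIF1A fell from 219 ± 7.2 to 165 ± 29.5 CPM (log2 -0.40, adjusted p = 7.38e-05), with NC replicate 1 inside the R-47 range. ARNT fell from 75.1 ± 3.69 to 64.6 ± 4.56 CPM (log2 -0.21, adjusted p = 0.00115), but not when scaled by library size alone or on the FPKM scales. Of their regulators, VHL rose from 87.0 to 95.7 CPM across R-47 to 128 to 147 CPM across NC (log2 0.64, adjusted p = 3.81e-11). Its arm, 3p, had a median of 0.74, and VHL stood -0.10 from it. HIF1AN fell from 58.3 ± 1.94 to 47.4 ± 3.58 CPM (log2 -0.29, adjusted p = 5.23e-05) and kept that call in 17 of 23 alternatives. Against its arm it was 0.17 higher (adjusted p = 0.00714). EGLN1 (log2 0.07, adjusted p = 0.227) and CITED2 (0.12, adjusted p = 0.127) did not pass. Against its arm EGLN1 was 0.29 higher (adjusted p = 1.54e-05, edgeR). Both were called higher by library size alone and on the FPKM scales, and EGLN1 also with length and GC offsets. CITED2 was called higher with a minimum count of 50 as well, and without NC replicate 1 or NC replicate 4.

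Targets went both ways. LOX was at 0.465, 0.197, 0.191, 0.365 and 0.268 CPM in R-47 and at 7.30, 6.33, 6.63, 5.43 and 6.58 CPM in NC (21.6-fold higher, log2 4.43, SE 0.20, adjusted p = 8.15e-15, edgeR). CA9 was at 0.574, 0.759, 0.872, 0.281 and 0.596 CPM in R-47, against the NC values given above (14.3-fold, log2 3.83, SE 0.29, adjusted p = 7.1e-11). For both, every NC library was above every R-47 library. Of the CA9 exonic bases, 38.5% are shared with ARHGEF39 on the opposite strand, and of those of ANKRD37 35.2% with UFSP2, and reads of such pairs cannot be told apart while the strand setting is unknown. ANGPTL4 rose from 4.95 to 6.32 CPM across R-47 to 28 to 46.2 CPM across NC (log2 2.74, adjusted p = 5.12e-15).

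Smaller rises were those of PFKFB4 (5.17 ± 0.368 to 16.4 ± 4.89 CPM, log2 1.67), ANKRD37 (1.12 ± 0.23 to 3.23 ± 0.61, 1.53), P4HA1 (21.7 ± 1.52 to 46.6 ± 3.61, 1.11) and NDRG1 (194 ± 7.18 to 317 ± 46.9, 0.72). P4HA1 rose against its arm, whose median was -0.46. KDM3A (63.9 ± 0.958 to 92.4 ± 3.9 CPM, log2 0.54), PDK1 (25.9 ± 2.06 to 37.4 ± 3.1, 0.53), BNIP3L (34.7 ± 3.57 to 49.8 ± 4.37, 0.53) and FAM162A, a mitochondrial protein gene (45.0 ± 2.0 to 61.9 ± 3.59, 0.47), rose also. ERO1A rose by the least (60.5 ± 5.28 to 72.5 ± 3.02 CPM, log2 0.27, adjusted p = 1.88e-04, edgeR), and against its arm, 14q, it was 0.31 lower. The adjusted p of the other 8 ranged from 6.62e-13 (P4HA1) to 4.62e-07 (BNIP3L).

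KDM4B was at 44.7, 45.3, 51.1, 45.9 and 46.2 CPM in R-47, and with 11.7 to 14.8 CPM in NC it was the most strongly lowered member (3.57-fold lower, log2 -1.84, SE 0.07, adjusted p = 2.14e-16, edgeR). ADM fell from 71.3 to 78.1 CPM across R-47 to 30.8 to 40.2 CPM across NC (log2 -1.01, adjusted p = 5.43e-12). BHLHE40 fell from 201 ± 8.23 to 148 ± 17.5 CPM (log2 -0.43, adjusted p = 1.63e-06), on an arm, 3p, whose genes were mostly higher. BNIP3 (63.2 ± 4.97 to 47.3 ± 4.54 CPM, log2 -0.41, adjusted p = 6.65e-06) and MXI1 (14.3 ± 0.789 to 12.3 ± 0.958, -0.21, adjusted p = 0.0164) fell with their arm, and VEGFA fell from 78.8 ± 5.53 to 63.1 ± 5.51 CPM (log2 -0.31, adjusted p = 7.94e-05). BNIP3, MXI1 and VEGFA lost their calls when measured against the arm median, MXI1 and VEGFA also by library size alone and on the 3 FPKM scales, and MXI1 was then 0.26 higher (adjusted p = 0.0037). DDIT4, HILPDA and P4HA2 did not pass. Arm medians ran from -0.83 to 0.74 in this comparison, from -0.44 to 0.51 for NFS1 against NC and from -0.09 to 0.10 for R-47 against R-37, over 41 arms with at least 50 tested genes.

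Other known HIF targets, a list of 53 genes, were split after heating: 8 of 50 tested were higher and 9 lower (median log2 fold change 0.06), near the 11.9% and 13.2% of all genes. SLC2A1, the main glucose transporter of many tumours, rose most (122 ± 5.88 to 154 ± 8.54 CPM, log2 0.35, adjusted p = 2.02e-04, edgeR), and the transferrin receptor gene TFRC fell most (867 ± 57.5 to 635 ± 38.7 CPM, log2 -0.44, adjusted p = 2.82e-05), among those averaging at least 5 CPM. In NFS1 against NC, 17 of 51 were higher and 5 lower (median 0.18), against 15.7% and 12.5% of all genes, led by TGFA, an EGF receptor ligand (3.19 ± 0.4 to 10.6 ± 1.58 CPM, log2 1.76), and by the adenylate kinase gene AK4 among the falls (20.3 ± 2.41 to 10.7 ± 1.7 CPM, log2 -0.91). In NC against R-47, 21 of 50 were higher and 22 lower (median 0.07), near the 40.1% and 39.6% of all genes, with NDUFA4L2, a mitochondrial protein gene, at 1.63 ± 0.327 and 22.8 ± 6.66 CPM (log2 3.81) and TGFA at 38.2 ± 3.61 and 3.19 ± 0.4 CPM (log2 -3.57).

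A further list of 21 symbols of the HIF machinery (partners, ligase parts and modifiers), 19 of them in the count table, was counted the same way. Its counts read against the same shares of all genes (11.9% and 13.2%, 15.7% and 12.5%, 40.1% and 39.6%). After heating 1 of 19 tested was higher, the deubiquitinase gene USP20 (log2 0.34, adjusted p = 0.00266, edgeR), and 3 were lower, of which COMMD1 fell most (log2 -0.24, adjusted p = 0.031). In NFS1 against NC 5 of 18 were higher and 2 lower, with CITED4 at log2 0.62 (adjusted p = 0.00624) and RUVBL2 at log2 -0.26 (adjusted p = 0.0369) as the largest. Between NC and R-47, 6 of 18 were higher and 4 lower. Among those averaging at least 5 CPM, RBX1, the RING subunit of the VHL ligase, rose most (log2 0.63, adjusted p = 6.76e-08, edgeR). OS9 fell most of these (log2 -0.65, adjusted p = 3.31e-12). Below that level ARNT2 fell further, from 2.79 ± 0.564 CPM in R-47 to 0.43 ± 0.12 in NC (log2 -2.68, adjusted p = 7.29e-10).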

How the data were processed

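PolyA RNA of 20 libraries was measured. The submitters' processing notes name fastp, HISAT2, HTSeq and hg38, while tool versions, the annotation and strandedness were not given in the sources used here. Deposited by the authors were whole-number counts per gene symbol, not normalised, and FPKM values from the authors, which equal the count over gene length and library total. Samples were grouped by title. From the deposited counts, each comparison was fitted on its 2 groups with edgeR 4.0.16 (filterByExpr, minimum count of 10, TMM, glmQLFTest, Benjamini-Hochberg at 0.05), which was tested on simulated counts. SE is the log2 fold change over the square root of F. CPM was scaled by TMM over all 20 libraries. The arm medians used RefSeq positions, known for 93.8% of symbols, with arms split at the widest stretch without a GENCODE gene.

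Named genes were all members passing in a comparison, HIF1A, EPAS1, ARNT, VHL, EGLN1, HIF1AN, CA9 and VEGFA throughout, and the largest rise and fall of each further list at 5 CPM or more on average. The members and lists were chosen with earlier results of these data known. Alternatives, with DESeq2 1.42.0 and limma 3.58.1 (R 4.3.3), covered scaling, filters, tests, FPKM, offsets for length and GC, arms, a replicate block and left-out libraries. No pair of libraries agreed within sampling noise.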

Additional observations from a re-analysis of the deposited data

Results flagged for a closer look

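In groups of 5 libraries, a highest or lowest library was set apart when its gap to the nearest other took more of the group's range than Dixon's 95% critical value. Of 109 gene and group combinations tested, 11 were set apart, and chance alone sets apart about 1 in 20. Of the 11, 4 were in NFS1 replicate 4. There HIF1A was at 231 CPM (the other 4 libraries 139 to 152), PDK1 at 51.4 CPM (37.8 to 41.6), ERO1A at 81.1 CPM (60.9 to 64.8) and VHL at 130 CPM (147 to 154). NC replicate 1 was set apart for ARNT, at 72.6 CPM (61.7 to 64.0), and for VHL, at 128 CPM (144 to 147). R-37 replicate 5 was set apart for P4HA1, at 27.9 CPM (22.7 to 23.2), and for ERO1A, at 74.8 CPM (59.3 to 63.2). Single cases were PFKFB4 in R-47 replicate 5 at 4.53 CPM (5.22 to 5.44), KDM4B in R-47 replicate 3 at 51.1 CPM (44.7 to 46.2) and MXI1 in NC replicate 4 at 14 CPM (11.7 to 12.1). The cause was not tested.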

How the results depend on the processing

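The limits are the unmatched experiments, the arm-wide shifts and, for CA9, LOX and ANKRD37 in the first experiment, few counts. Of the named genes' values under the alternatives run, 340 of the heat comparison, 414 of NFS1 against NC and 519 of NC against R-47 kept direction and side of the threshold; 6, 11 and 6 changed sign. The cause of the changes below was not tested, except that the arm settings subtract the arm median by construction. Members called lower after heating were 2 (P4HA2 and BHLHE40) with length and GC offsets, and 1 to 2 over the fits that left out 1 library (2 without R-37 replicate 5). Members called lower in NFS1 against NC were 1 (ERO1A) with length and GC offsets and 1 leaving out NC replicate 1 with NFS1 replicate 4 together, and 0 to 1 with 1 library left out (1 without NFS1 replicate 4). Members higher there were 6 less the arm median. Members lower in NC against R-47 were 6 by library size alone, 6 on log2(FPKM + 1), 6 on log2(FPKM + 0.1) and 5 on log2(FPKM + 1) with no filter.

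Changes of sign concerned values near 0 or the arm setting. After heating, HIF1A was 0.0188 with length and GC offsets, VHL was 0.0204 by library size alone and 0.0200, 0.0210 and 0.0200 on the 3 FPKM scales, and CA9 ran from -0.315 to 0.0466 with 1 library left out. In NFS1 against NC, EPAS1 was 0.0389 leaving out NFS1 replicates 2 and 3, and HIF1AN -0.0873 less the arm median. HIF1A there was -0.00235 with DESeq2 size factors, -0.00324 with DESeq2, -0.00741 with all 20 libraries, -0.0633 with length and GC offsets, -0.0320 leaving out NC replicate 1 with NFS1 replicate 4, and -0.146 to 0.122 with 1 library left out. In NC against R-47 less the arm median, ARNT was 0.0180, BNIP3 0.0522, ERO1A -0.307, HIF1AN 0.172, MXI1 0.258 and VHL -0.102.

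Same-numbered libraries did not consistently deviate together (correlations of -0.145 to 0.141 after heating, -0.319 to 0.0984 in NFS1 against NC and -0.00705 to 0.22 in NC against R-47). No pairing by number was therefore seen, though 5 libraries per group cannot exclude one. With the replicate block, members higher and lower were 7 and 1, 10 and 0, and 13 and 11 in the same order. Under it EPAS1 lost its call after heating, and KDM3A and P4HA2 lost theirs in NFS1 against NC. Replicate 3 matched its own number best in 2 comparisons, and no other replicate did.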
